A study of Mus musculus with 27 samples.

Results

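The passage from hemogenic endothelium 1 (HE1) to hemogenic endothelium 2 (HE2) was examined in cells that had received no doxycycline (DOX), using the 2 HE2 arrays and the 2 HE1 arrays out of 27 arrays in the series. The 4 arrays are those that the labels give as HE1 or HE2 without DOX, and all genes on them were considered. All 4 carried RNA of the dnFOS mouse embryonic stem cell line, which holds a DOX-inducible, Flag-tagged dominant-negative FOS peptide at the Hprt locus. Both groups shared this genotype and were given no DOX (0 d). FLK1+ hemangioblast cells purified from embryoid bodies were kept for 48 h in blast culture and sorted into HE1 (KIT+ TIE2+ CD41-) and HE2 (KIT+ TIE2+ CD41+). The cells were differentiated in vitro and came from 1 engineered line grown on mouse embryonic feeder cells, and the labels do not say whether replicates 1 and 2 were separate cultures, so that p-values measure the spread between arrays only. The series as a whole asked what AP-1 does in these populations, and the untreated HE1 to HE2 step is its reference course.

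Hemogenic endothelium is a specialized endothelium from which blood cells arise through an endothelial-to-hematopoietic transition. RUNX1 is needed for this transition, and the cells silence endothelial genes such as those for SOXF factors and VE-cadherin while they turn on blood genes. CD41, the integrin alpha IIb encoded by Itga2b, is among the earliest surface markers of the hematopoietic fate, KIT is a receptor kinase of hemogenic and progenitor cells, and TIE2, encoded by Tek, is an endothelial receptor kinase.

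Levels are log2 signals from which each array's own 75th percentile was taken away, so that a gene at 0 is as bright as that percentile and a difference of 1 is 2-fold. The 75th percentile signal was 125 and 128 on the HE1 arrays, 73.2 on HE2 replicate 1 and 603 on HE2 replicate 2. HE2 replicate 1 was thus the dim array of the comparison, with 51.1% of probes well above background against 53.6% to 74.8% on the other 3. Replicates correlated at r = 0.947 in HE1 and 0.905 in HE2 across the genes tested, and the median difference between replicates of 1 gene was 0.54 in HE1 and 0.99 in HE2 on the log2 scale. Both replicate 1 arrays lay on 1 slide and both replicate 2 arrays on another, so each slide gave its own HE2 minus HE1 difference. The precision of each value is limited by there being 2 arrays a group.

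From HE1 to HE2, some genes of blood cells rose and some genes of vessels, mesenchyme and matrix fell. Rises were called for 12 of 38 leukocyte genes, 8 of 24 megakaryocyte genes and 7 of 30 hematopoietic transcription factor genes, and falls for 12 of 34 matrix genes, 7 of 9 mesenchymal transcription factor genes and 6 of 18 Notch and arterial genes. Runx1, the master regulator of the transition, changed by 4.14 (SE 0.65, adjusted p = 0.00158) on the log2 scale, and Col1a2, a chain of type I collagen, by -3.61 (SE 0.59, adjusted p = 0.00213), both above background on all 4 arrays. A gene was called where limma gave an adjusted p (Benjamini-Hochberg) below 0.05 and the groups differed 2-fold or more. Of 23452 genes tested, 153 were called higher in HE2 (0.652% of those tested) and 519 lower (2.21%), 672 in all (2.87%). In bulk RNA, fewer cells of a type and less RNA per cell cannot be told apart. The median of the genes that rose was a log2 fold change of 3.27 (9.65-fold), that of the genes that fell was -2.99 (7.94-fold), and that of all genes tested was 0.04. Of the genes that fell, 220 were above background on 1 HE2 array and 40 on none, and 30 of those that rose on no HE1 array. The medians of the called genes thus rest partly on signals not above background. Genes lower in HE2 made up 77.2% of those called, and 59.7% when arrays were scaled on their median (112 higher, 166 lower). Of the called genes, 129 of those higher and 446 of those lower had a gene symbol.

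**Figure D1:**
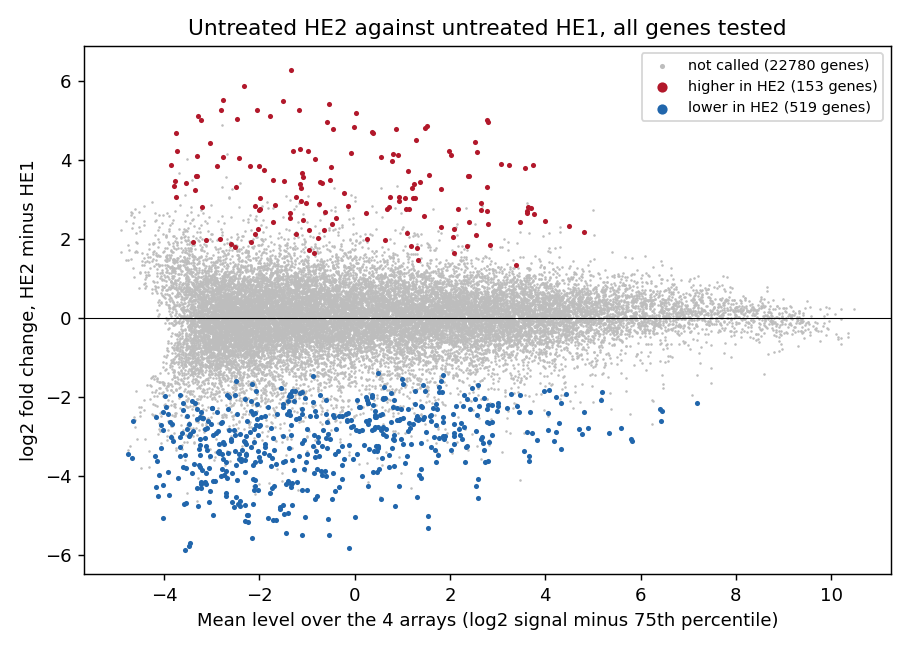
Each point is 1 of the 23452 genes tested, with its mean level over the 4 arrays on the horizontal axis (log2 signal minus 75th percentile) and its log2 fold change, HE2 minus HE1, on the vertical axis. The 153 genes called higher in HE2 are red, the 519 called lower are blue, and the others are grey.

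The number of genes called depended on the fit. It was 0 in both directions when the model was fitted to these 4 arrays alone, where 526 genes were higher and 1279 lower at an unadjusted p under 0.05 and 2-fold, against 645 (2.75% of those tested) and 1667 (7.11%) in the fit to 27 arrays, where 2418 genes (10.3%) had an unadjusted p under 0.05 at any size of change. Leaving out 1 array gave 57 higher and 101 lower without HE1 replicate 1, 79 and 290 without HE1 replicate 2, 86 and 201 without the dim HE2 replicate 1, and 85 and 437 without HE2 replicate 2. Of the 153 and 519 genes, 39 and 69 were called with each of the 4 arrays left out in turn. Below, such genes are said to be called whichever array was left out.

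The slides differed in the size of the changes. No called gene had overlapping HE1 and HE2 arrays, so the sign of its difference on each slide, and with an array left out, follows from the choice of the genes. Over all genes tested, 16% had both HE2 arrays above both HE1 arrays and 16.1% had both below. The median difference of the higher genes was 3.02 on the slide of replicate 1 and 3.44 on that of replicate 2, and that of the lower genes was -3.39 and -2.57. With the replicate number as a block in a fit to the 4 arrays, 226 genes were higher and 687 lower. In that fit limma gave all 84 genes with values here the same SE of 0.77, so that a call in it rests on the size of the change alone. With the slide as a fixed block in the fit to 27 arrays 453 were higher and 1234 lower.

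**Figure D2:**
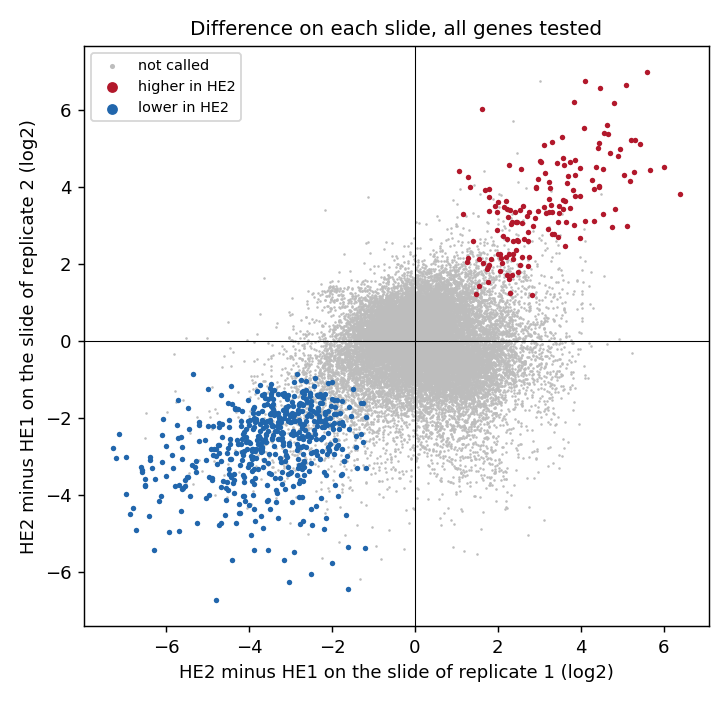
Each point is 1 gene tested, with its HE2 minus HE1 difference (log2) on the slide of the replicate 1 arrays on the horizontal axis and on the slide of the replicate 2 arrays on the vertical axis. The 153 genes called higher in HE2 (red) lie above 0 on both axes and the 519 called lower (blue) below 0 on both, as their selection on these arrays entails.

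Signals near background bear on the size of these changes. Among the genes that rose, 30 were well above background on neither HE1 array, 14 on 1 and 109 on both. Among those that fell, 40 were above background on neither HE2 array, 259 on both and 220 on 1, and in each of these 220 genes the array without signal was the dim HE2 replicate 1. Of the genes given with values here, Tbx20, Foxc2, Angpt2, Adgrf5, Amotl1, Itga8, Sparcl1, Snai1, Snai2, Twist2, Meis2, Hand1, Pdgfra, Cavin2, Vgll2, Dab2, Sulf1 and Prss12 were among these 220. The size of their change rests on a signal of HE2 replicate 1 that was not above background. The 30 and 40 genes with no signal in one group entered the test only through the group where they were high. Their adjusted p and their calls with an array left out are thus not independent of that choice. For genes measured in one group alone only a lower bound of the fold between group means is printed. It sets the mean of the brighter group against a floor on each array of the other group. That floor was the array's weakest signal counted as above background or the gene's own signal, whichever was higher. The bound does not hold array by array, since Cdh3 and Maf on HE1 replicate 2 lay below the floor of HE2 replicate 1 (-2.78). Nor is the floor a strict limit of detection. Ikzf1 and Myo1f on HE1 replicate 2 lay above that array's weakest counted signal (-4.42) without being counted.

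The genes of the sorting markers did not pass the test. Itga2b, which encodes CD41, was at 1.33 and 0.87 on the HE1 arrays and 2.64 and 3.77 on the HE2 arrays, with both HE2 arrays above both HE1 arrays, and its log2 fold change was 2.10 (SE 1.1, adjusted p = 0.579). Tek was at 2.22 and 2.74 in HE1 and 0.87 and 2.33 in HE2, a difference of -0.88 (SE 1.22, adjusted p = 0.989). Kit was at 3.47 and 3.83 in HE1 and 3.94 and 4.39 in HE2, a difference of 0.51 (SE 0.72, adjusted p = 0.989). The HE1 and HE2 arrays overlapped for Tek alone among the 3.

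Among the transcription factors of blood cells, 7 of 30 tested rose and none fell. They were Runx1, Spi1, Gfi1b, Myb, Ikzf1, Nfe2 and Ikzf2, and the list's median log2 fold change was 0.74 against 0.04 over all genes tested. Runx1 was at 0.25 and -0.35 on the HE1 arrays and 4.57 and 3.60 on the HE2 arrays, and its log2 fold change was 4.14 (SE 0.65, adjusted p = 0.00158). Spi1, which encodes the myeloid and lymphoid factor PU.1, was at -5.31 and -5.55 in HE1, above background on neither array, and at -0.01 and -0.31 in HE2. It was at least 14.2-fold higher (adjusted p = 0.00354). Both were called whichever array was left out, and in both the HE2 arrays lay well clear of the HE1 arrays, but with normexp background correction Spi1 was not called (adjusted p = 0.229).

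Gfi1b, a repressor that acts downstream of RUNX1 and in erythroid and megakaryocytic cells, was at -0.60 and 0.31 in HE1 and 3.67 and 4.51 in HE2 and changed by 4.24 (SE 0.78, adjusted p = 0.00432). Nfe2, a factor of megakaryocyte and erythroid maturation, went from 1.15 and 1.46 to 5.14 and 5.24 and changed by 3.89 (SE 0.67, adjusted p = 0.00301). For both genes the replicates of each group lay close together beside the distance between the groups. Myb, needed by definitive progenitors, was at -1.13 and -1.42 in HE1 and 2.44 and 3.35 in HE2, a change of 4.17 (SE 0.90, adjusted p = 0.0139). Ikzf1, the lymphoid regulator Ikaros, was above background on neither HE1 array (-5.61 and -3.77) and at 0.39 and 0.77 in HE2, at least 18.9-fold higher (adjusted p = 0.00311). The 7 called factors became 2 without HE1 replicate 1, when Runx1 and Spi1 passed, and 5 without each of the other 3 arrays, when Myb and Ikzf2 did not pass.

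Other regulators of early blood were already present in HE1 and did not pass the test. Tal1, a factor of hemangioblast and blood specification, stood at 4.16 and 4.38 in HE1 and 5.30 and 5.16 in HE2 (0.96, SE 0.96, adjusted p = 0.954). Gata2, which acts in hemogenic endothelium and progenitors, was at 2.06 and 2.52 in HE1 and 1.91 and 2.73 in HE2 with arrays that overlapped (0.03, SE 1.1, adjusted p = 0.999). Gfi1, the partner of Gfi1b in silencing endothelial genes, was at 1.81 and 1.98 in HE1 and 0.95 and 1.39 in HE2 (-0.72, SE 1.08, adjusted p = 0.993), lower on both HE2 arrays. Gata1, the erythroid and megakaryocytic GATA factor, stood at -1.80 and -3.46 in HE1 and 0.22 and 0.36 in HE2, above background on all 4 arrays, and its difference of 2.92 (SE 0.83) had an adjusted p of 0.0698. Tal1 and Gata1 had both HE2 arrays above both HE1 arrays. Gata1 was called with the replicate number as a block (adjusted p = 0.00738), with the slide as a fixed or random block (0.0481 and 0.0184), with quantile normalization and with the authors' values.

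**Figure D3:**
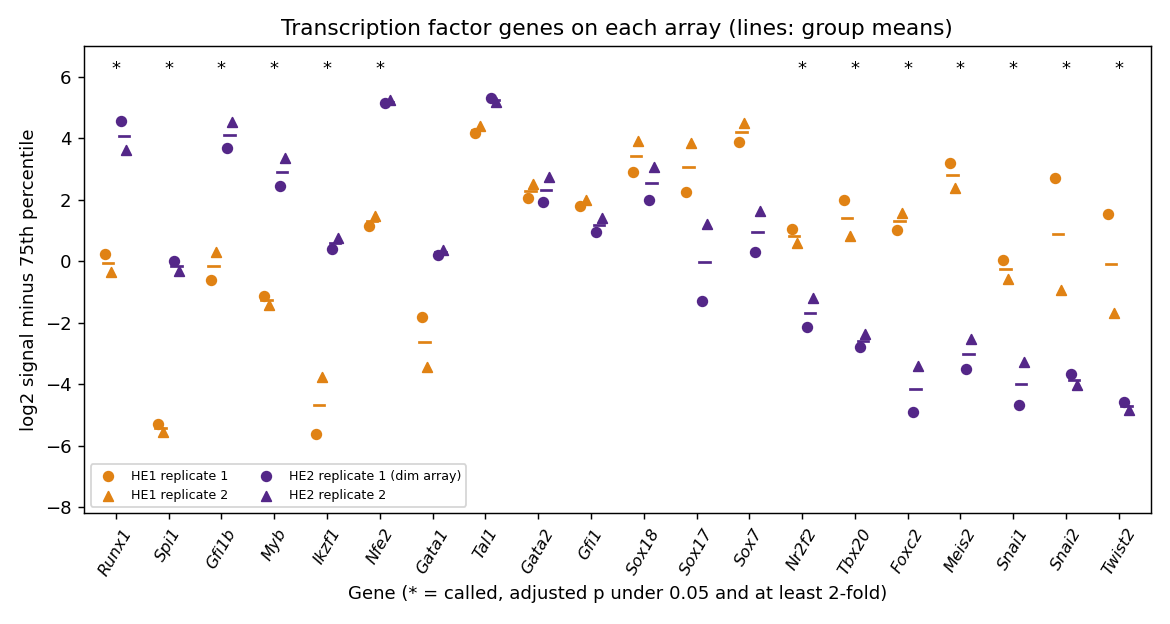
The level of 20 transcription factor genes on each of the 4 arrays (log2 signal minus 75th percentile), HE1 in orange and HE2 in purple, circles for replicate 1 and triangles for replicate 2, with short lines at the group means and a star over each gene called. Runx1, Spi1, Gfi1b, Myb, Ikzf1 and Nfe2 are higher on both HE2 arrays, Gata2 overlaps, and Nr2f2, Tbx20, Foxc2, Meis2, Snai1, Snai2 and Twist2 are lower on both HE2 arrays.

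Genes of leukocyte signalling and of the hematopoietic cytoskeleton held 12 rises among 38 tested, with none lower and a median of 2.28. Not all of the 12 were called with 1 array left out, and the list's median then ranged from 1.98 to 2.64. The 12 were Coro1a, Was, Vav1, Hcls1, Ptpn6, Plek, Sla, Evi2a, Myo1f, Myo1g, Apbb1ip and Dok2, most of which encode adaptors, phosphatases, myosins and actin regulators restricted mainly to blood cells. Myo1f, an unconventional myosin of leukocytes, was at -3.86 and -3.75 in HE1, above background on neither array, and at 1.58 and 1.37 in HE2, at least 35-fold higher (adjusted p = 6.24e-05). Dok2, an adaptor that restrains tyrosine kinase signalling, was detected on all 4 arrays, at 1.54 and 1.79 in HE1 and 5.39 and 5.56 in HE2, and changed by 3.81 (SE 0.45, adjusted p = 0.000173). Both genes were called whichever array was left out. Evi2a, above background on neither HE1 array, was at -5.02 and -6.04 in HE1 and -0.55 and 0.55 in HE2 and was at least 15.9-fold higher (adjusted p = 7.01e-05).

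For genes of megakaryocytes and platelets the median was 2.10, and 6 of 24 tested had a negative value. With the slide as a fixed block 12 were called higher and Thbs1 lower. In the fit with no block none fell and 8 rose. Among them were Gp9, Treml1, P2rx1, Slc35d3, Rgs18, Dapp1 and Itgb3. Itgb3, the beta3 integrin that pairs with CD41 on platelets, was at 0.03 and 0.59 in HE1 and 4.97 and 5.59 in HE2, a change of 4.97 (SE 0.80, adjusted p = 0.00187). Itgb3 and Itga2b encode the 2 chains of 1 receptor. The first was called and the second was not, with both HE2 arrays above both HE1 arrays for each. Their difference was not tested. Rgs18, a G-protein regulator of platelets, was above background on neither HE1 array (-5.58 and -4.70) and at -2.01 and -1.04 in HE2. It was at least 5.53-fold higher (adjusted p = 0.000673), but with normexp background correction it was not called (adjusted p = 0.979). Without HE1 replicate 1 the 8 became 2, Itgb3 and Rgs18. There were 5 without HE1 replicate 2 and 4 without either HE2 array.

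Myeloid genes followed, with a median of 1.62 and 5 of 22 tested at a negative value, against 47.9% of all genes tested. In the fit with no block none was called lower and 6 were called higher. They were Fcer1g and Tyrobp, signalling adaptors of innate receptors, Alox5ap, which activates leukotriene synthesis, Mpo, the granule enzyme myeloperoxidase, Csf2rb, the common beta chain of cytokine receptors, and Cebpb. Fcer1g was at -1.07 and -0.75 on the HE1 arrays and 3.84 and 4.07 on the HE2 arrays, a change of 4.86 (SE 0.72, adjusted p = 0.000938). Tyrobp was at -1.77 and -0.54 in HE1 and 3.06 and 2.91 in HE2, a change of 4.14 (SE 0.62, adjusted p = 0.00102). Alox5ap was at 1.74 and 1.89 in HE1 and 5.55 and 5.83 in HE2, a change of 3.88 (SE 0.57, adjusted p = 0.000938). Those 3 genes were detected on all 4 arrays and, like Mpo, were called whichever array was left out. Csf1r, the macrophage growth factor receptor, was at 2.00 and 0.80 in HE1 and 3.26 and 2.88 in HE2 and did not pass (1.67, SE 0.91, adjusted p = 0.623). Cebpa, the granulocyte factor, was above background on 1 array of each group and was not tested.

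The genes with the largest fitted rises, most of them below background on both HE1 arrays, included products of platelets, neutrophils and macrophages. Where both HE1 arrays were below background, the fitted size and so the rank rest on a signal that was not measured. F13a1 was at -3.78 and -5.20 in HE1 and 1.81 and 1.79 in HE2, at least 55.4-fold higher (adjusted p = 2.48e-05), Ltf, the neutrophil granule protein lactoferrin, was at -5.13 and -5.41 in HE1 and -0.03 and 1.26 in HE2, at least 24.3-fold higher (adjusted p = 1.08e-05), and Mmrn1, which encodes the platelet protein multimerin, was at -4.06 and -4.43 in HE1 and 0.74 and 1.77 in HE2, at least 37.9-fold higher (adjusted p = 0.000173). For each of these 3 genes no HE1 array showed signal above background and both HE2 arrays did. Clec4d, a C-type lectin of myeloid cells, was also above background in HE2 alone, at 0.26 and -0.15 against -5.41 and -4.59, at least 16.5-fold higher (adjusted p = 0.00326). Ccl9, a chemokine, and Cst7, cystatin F, were each above background on 1 HE1 array and changed by 5.42 (SE 1.05, adjusted p = 0.00627) and 5.11 (SE 0.90, adjusted p = 0.00326). Of the 10 largest fitted rises, F13a1, Ltf, Mmrn1, Evi2a, Myo1f, Spi1, Ikzf1 and Clec4d entered the test only through HE2, where they were high, so their calls are no measure of stability. Ikzf1, Clec4d and Cst7 were lost without HE1 replicate 1 (adjusted p = 0.0788, 0.064 and 0.0982), and Ccl9 without replicate 2 of HE1 or of HE2 (adjusted p = 0.0995 and 0.0538).

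Erythroid genes largely did not pass. Of 19 tested, 2 rose, Gfi1b and Car2, and the median was 0.30. Car2, carbonic anhydrase of red cell precursors, was at 1.92 and 2.59 in HE1 and 4.05 and 5.32 in HE2, a change of 2.43 (SE 0.56, adjusted p = 0.0204). Hbb-bh1, an embryonic globin, was already at 5.04 and 5.09 in HE1 and stood at 6.58 and 6.60 in HE2 (1.52, SE 0.87, adjusted p = 0.669). Without HE1 replicate 1 neither of the 2 was called, and without HE1 or HE2 replicate 2 Gfi1b alone was.

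Among 13 hematopoietic cytokine receptors tested, 2 rose and 1 fell, with a median of -0.32. Il6ra, the interleukin 6 receptor, was at -0.37 and -0.51 in HE1 and 2.74 and 2.97 in HE2, a change of 3.30 (SE 0.48, adjusted p = 0.000833), and was called whichever array was left out; interleukin 6 is a supplement of the blast culture. Lifr, the receptor for leukemia inhibitory factor, fell from 3.20 and 4.16 to -0.03 and 1.00, a change of -3.19 (SE 0.72, adjusted p = 0.0179), and was called without HE2 replicate 2 but not without any of the other 3 arrays.

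Endothelial genes had mostly lower values in HE2, and few passed the test without a block. Of 17 endothelial transcription factors tested, 4 fell and none rose, 16 had a negative value, against 47.9% of all genes tested, and the median was -1.03. The 4 were Tbx20, Foxc2, Nr2f2 and Hey2. Tbx20, a T-box factor of heart and vessels, was at 1.97 and 0.82 in HE1 and -2.80 and -2.38 in HE2, a change of -3.98 (SE 0.62, adjusted p = 0.00134), and was called whichever array was left out. Nr2f2, the venous regulator COUP-TFII, was at 1.04 and 0.58 in HE1 and -2.15 and -1.21 in HE2, a change of -2.49 (SE 0.57, adjusted p = 0.0201). Foxc2, a forkhead factor of vessels and mesenchyme, was at 1.02 and 1.56 in HE1 and -4.90 and -3.40 in HE2, above background on 1 HE2 array, and changed by -5.44 (SE 1.14, adjusted p = 0.0108). Nr2f2 and Foxc2 were called without HE2 replicate 2 but not without any of the other 3 arrays, when their adjusted p reached 0.216 and 0.135, and Hey2 only without HE1 replicate 1.

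The SOXF factors, which hold hemogenic cells in an endothelial state, had lower values in HE2 without passing in the fit with no block. Sox7 was at 3.89 and 4.51 in HE1 and 0.29 and 1.62 in HE2 (-3.24, SE 1.73, adjusted p = 0.6). Sox17 was at 2.25 and 3.86 in HE1 and -1.29 and 1.22 in HE2 (-3.09, SE 1.46, adjusted p = 0.476). Sox18 was at 2.91 and 3.91 in HE1 and 2.00 and 3.08 in HE2 (-0.87, SE 1.52, adjusted p = 0.997). The groups did not overlap for Sox7 and Sox17 and overlapped for Sox18. With the replicate number as a block Sox7 and Sox17 were called (adjusted p = 0.00182 and 0.00369), and with the slide as a fixed block Sox17 (0.0487).

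Of 46 endothelial receptors and surface proteins, 40 had a negative value, with a median of -1.22, and Angpt2 and Adgrf5 passed the test. With the replicate number as a block 10 passed, Icam2, Mmrn2, Nos3, Nrp1, Robo4, Stab1, Stab2 and Thbd in addition, and 6 with the slide as a fixed or as a random block. Angpt2, a ligand of TIE2, was at -0.22 and -1.58 in HE1 and -4.85 and -5.21 in HE2, a change of -4.13 (SE 0.51, adjusted p = 0.000265), called whichever array was left out. Adgrf5, an adhesion receptor of endothelium, went from 2.33 and 1.62 to -3.79 and -2.42, a change of -5.08 (SE 1.22, adjusted p = 0.0277), and was not called in any fit with 1 array left out (adjusted p = 0.0571 to 0.236). Both were above background on 1 HE2 array. Cdh5, VE-cadherin, was detected on all 4 arrays, at 5.09 and 6.23 in HE1 and 3.69 and 5.20 in HE2, with overlapping arrays (-1.22, SE 1.52, adjusted p = 0.983). The summed signal of the 10 endothelial markers was 130 and 249 times the 75th percentile in HE1 and 95.1 and 137 times in HE2, and all 10 were above background on both arrays of each group.

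Among genes of the Notch pathway and of arteries, 6 of 18 tested fell and 1 rose. Efnb2, the arterial ephrin B2, was at 3.58 and 3.41 in HE1 and -0.68 and 0.72 in HE2, a change of -3.47 (SE 0.64, adjusted p = 0.00448). Unc5b, a netrin receptor of arterial endothelium, was at 4.31 and 4.91 in HE1 and -0.72 and 1.81 in HE2, a change of -4.07 (SE 0.94, adjusted p = 0.0216). Notch4 was at 3.46 and 3.34 in HE1 and 0.07 and 0.61 in HE2, a change of -3.06 (SE 0.72, adjusted p = 0.0242). All 3 were detected on all 4 arrays with HE2 below HE1. Hey2, Gja5 and Notch3 also fell, and Mfng, a glycosyltransferase that modifies Notch receptors, rose. The median was -0.98, and the 7 calls became 1 without either HE1 array (Hey2 or Efnb2), 2 without HE2 replicate 2 (Efnb2 and Unc5b) and 0 without the dim HE2 replicate 1.

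Of 20 junction genes tested, 5 fell, none rose, 19 were negative and the median was -1.41. Cdh2, N-cadherin, was at 5.49 and 5.31 in HE1 and stood at 2.35 and 1.47 in HE2, a change of -3.49 (SE 0.62, adjusted p = 0.00364). Tjp1, the tight junction protein ZO-1, was at 3.65 and 3.70 in HE1 and 0.10 and 1.37 in HE2, a change of -2.94 (SE 0.63, adjusted p = 0.0125). Amotl1, a junction protein that binds YAP, was at -0.71 and -1.24 in HE1 and -3.02 and -3.26 in HE2, above background on 1 HE2 array, a change of -2.17 (SE 0.44, adjusted p = 0.00921). Jam2 and Gjc1 completed the 5, and none of the 5 was called without HE1 replicate 1. Cdh3, P-cadherin, was among the 10 largest fitted falls. It was at 1.77 and -2.97 in HE1, above background on neither HE2 array, and at least 12.9-fold lower (adjusted p = 0.0125), with the 2 HE1 arrays far apart, and its adjusted p was 0.31 without HE1 replicate 1 and 0.132 without HE2 replicate 2.

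Integrins moved both ways. Of 19 subunits tested, Itgb3 and Itga4 rose and Itgb5, Itga8 and Itga1 fell. Itgb5, a partner of the alpha V chain, was at 3.49 and 1.36 in HE1 and -1.31 and -1.63 in HE2, a change of -3.89 (SE 0.62, adjusted p = 0.00173). Itga8, a mesenchymal integrin, was at 0.55 and -1.03 in HE1 and -4.93 and -4.59 in HE2, a change of -4.52 (SE 0.78, adjusted p = 0.00304). The list's median was -1.14, and without HE1 replicate 1 only Itgb3 was called.

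Extracellular matrix genes held 12 falls among 34 tested, with Mmrn1 the 1 that rose and a median of -1.86. Col1a2 was at 5.45 and 5.46 in HE1 and 2.10 and 1.59 in HE2, a change of -3.61 (SE 0.59, adjusted p = 0.00213), and was called whichever array was left out. Sparcl1, an anti-adhesive matrix protein, was at 1.51 and 0.30 in HE1 and -4.99 and -3.44 in HE2, a change of -5.12 (SE 0.92, adjusted p = 0.00377). Outside this list, Tnc, tenascin C, was above background on neither HE2 array, with -0.12 and -1.06 in HE1 against -4.92 and -7.79 in HE2, and at least 13-fold lower (adjusted p = 0.000337). Smoc2, also outside it, was at 1.36 and -2.60 in HE1 and -4.94 and -8.04 in HE2, above background on neither HE2 array, and was at least 12.7-fold lower (adjusted p = 0.0325), with the 2 HE1 arrays far apart, and its adjusted p was 0.517 without HE1 replicate 1 and 0.259 without HE2 replicate 2. Other matrix genes of the list that fell were Col3a1, Col6a1, Lamb1, Nid1, Nid2, Vcan, Fbn1, Fbln1 and Fbln2. Of the 12, 1 was called without HE1 replicate 1 and 2 without HE2 replicate 1.

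Factors of the mesenchymal programme were mostly lower in HE2. Of 9 tested, 7 fell, all 9 were negative and the median was -3.34. With normexp background correction 1 of the 9 was called, Zeb1, and of the 3 above background on all 4 arrays, whose median was -0.43, Zeb1 alone. Snai2 was at 2.70 and -0.95 in HE1 and -3.68 and -4.04 in HE2 and changed by -4.74 (SE 0.94, adjusted p = 0.00778). Twist2 was at 1.52 and -1.70 in HE1 and -4.58 and -4.85 in HE2 and changed by -4.63 (SE 0.89, adjusted p = 0.00625). Snai1 was at 0.05 and -0.58 in HE1 and -4.68 and -3.29 in HE2 and changed by -3.72 (SE 0.66, adjusted p = 0.00352). Snai2 and Twist2 were far higher on HE1 replicate 1 than on HE1 replicate 2, and all 3 were above background on 1 of the 2 HE2 arrays. Twist1, Zeb1, Prrx2 and Foxc2 were the other 4, and without HE1 replicate 1 none of the 7 was called, without HE2 replicate 1 Twist2 alone. Meis2, which had the smallest adjusted p of all genes, was at 3.21 and 2.39 in HE1 and -3.52 and -2.54 in HE2, a change of -5.82 (SE 0.45, adjusted p = 2.86e-06), and was called whichever array was left out.

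Markers of other cells moved with these genes. Of 7 fibroblast markers tested, 4 fell, Col1a2, Col3a1, Pdgfra and Pdgfrb, of which Col1a2 alone was called without replicate 1 of either group and with normexp. The summed signal of the list was 92.6 and 46.7 in HE1 against 5.31 and 4.0 in HE2, in units of the array's 75th percentile. The 6 smooth muscle markers summed to 568 and 248 in HE1 and 49.6 and 50.5 in HE2, with Acta2, smooth muscle actin, at 8.42 and 6.34 in HE1 and 4.51 and 4.04 in HE2 (a change of -3.10, SE 0.64, adjusted p = 0.0104). Cardiac markers summed to 17.2 and 28.7 against 3.13 and 5.06, and 1 of 4 tested fell. None of 3 pluripotency markers tested was called, and the list summed to 1.76 and 2.57 in HE1 against 3.92 and 0.78 in HE2. HE1 replicate 1 carried more of the fibroblast and smooth muscle signal than HE1 replicate 2, and 124 of the 519 genes that fell were at least 2-fold higher on HE1 replicate 1 than on HE1 replicate 2, against 30 the other way. Across all genes tested 9.01% were at least 2-fold higher on HE1 replicate 1. The part of such cells in the falls was not tested. Of 9 markers of committed blood 7 rose, with a summed signal of 7.49 and 6.89 in HE1 against 78.8 and 96.6 in HE2, and of 5 megakaryocyte markers 3 rose (2.79 and 3.95 against 43.4 and 72.1). Of 7 myeloid markers 3 rose, but their summed signal was 51.8 and 74.7 in HE1 and 158 and 67.9 in HE2, so it was lower in HE2 on replicate 2. None of 6 erythroid markers passed, with a median of -0.01 and sums that went from 45.1 and 46.0 in HE1 to above 100 in HE2.

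Smooth muscle genes (12 tested) held 2 that fell, Acta2 and Cald1, and Cald1, caldesmon, went from 3.78 and 2.78 to 0.05 and 0.44, a change of -3.03 (SE 0.47, adjusted p = 0.00131). Of 9 cardiac and mesoderm genes tested, Hand1, Gata6, Nkx2-5 and Pdgfra fell. Hand1, a bHLH factor of heart and extraembryonic mesoderm, was at 2.21 and -0.79 in HE1 and -4.30 and -4.37 in HE2, a change of -5.05 (SE 0.84, adjusted p = 0.00228). Pdgfra, a mesenchymal receptor kinase, was at -0.73 and -1.66 in HE1 and -4.48 and -4.19 in HE2, a change of -3.14 (SE 0.59, adjusted p = 0.00541). Without HE1 replicate 1 neither Acta2 nor Hand1 nor Pdgfra was called (adjusted p = 0.258, 0.0663 and 0.12), and Acta2 was called only without HE1 replicate 2. Among 25 genes of actin, adhesion and caveolae, 6 fell and none rose, with a median of -1.42. The 6 became 2 without either HE1 array, 1 without HE2 replicate 1 and 3 without HE2 replicate 2. Cavin2, a caveolar coat protein, was at 2.15 and 1.47 in HE1 and -2.89 and -2.62 in HE2, a change of -4.57 (SE 0.72, adjusted p = 0.00158), and was called whichever array was left out; Anxa2, annexin A2, was at 3.39 and 5.02 in HE2 after 6.89 and 7.08 in HE1, a change of -2.78 (SE 0.64, adjusted p = 0.0204), called without HE2 replicate 2 but not without the others (adjusted p up to 0.28).

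The remaining large falls covered several functions. Vgll2, a cofactor of TEAD proteins, was at 1.97 and -0.68 in HE1 and -4.83 and -5.03 in HE2, a change of -5.57 (SE 0.94, adjusted p = 0.00262). Dab2, an endocytic adaptor, was at 2.74 and 1.68 in HE1 and -4.23 and -2.31 in HE2, a change of -5.48 (SE 0.64, adjusted p = 0.000173). Sulf1, which edits heparan sulfate, was at 1.14 and -0.47 in HE1 and -5.02 and -4.64 in HE2, a change of -5.16 (SE 0.73, adjusted p = 0.000673). These 3 were above background on 1 of the 2 HE2 arrays, and Dab2 and Sulf1 were called whichever array was left out. Pdlim3, a muscle protein of the actin cytoskeleton, was measured on all 4 arrays, at 3.33 and 5.07 in HE1 and -2.36 and 0.13 in HE2, a change of -5.32 (SE 1.24, adjusted p = 0.0233). Prss12, a secreted protease, was at 1.47 and 1.79 in HE1 and -4.94 and -2.77 in HE2, a change of -5.49 (SE 1.02, adjusted p = 0.00468). Vgll2 was lost without HE1 replicate 1 (adjusted p = 0.0783), Prss12 without replicate 1 of either group (0.0528 and 0.0916), and Pdlim3 without any array but HE2 replicate 2 (up to 0.274).

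AP-1 factors are dimers, and the dnFOS peptide is built to block those that JUN proteins form. The list used here joined the FOS, JUN, ATF, BATF and JDP factors with the related MAF factors, which are not the stated target of the peptide. Of 19 members tested in these untreated populations, Maf, Maff and Jdp2 fell and none rose, so that 2 of the 3 were MAF genes, and the median was -0.55. Batf was called higher with quantile normalization, with median scaling, with the authors' values and with the slide as a fixed or random block. Maff, a small MAF protein, was at 2.04 and 1.91 in HE1 and -1.66 and 0.08 in HE2, a change of -2.76 (SE 0.70, adjusted p = 0.0388). Jdp2, a JUN dimerization protein, was at 2.03 and 1.49 in HE1 and 0.03 and 0.42 in HE2, a change of -1.53 (SE 0.39, adjusted p = 0.0367), and was not called with the replicate number as a block (adjusted p = 0.485). Maf was above background on neither HE2 array, with -0.92 and -3.33 in HE1 against -4.83 and -7.34 in HE2, at least 4.46-fold lower (adjusted p = 0.0186). Fos was at 2.30 and 3.63 in HE1 and 1.15 and 3.28 in HE2 with overlapping arrays (-0.75, SE 0.81, adjusted p = 0.969), and Atf3, a stress-induced member, at 3.07 and 2.99 in HE1 and 0.40 and 2.12 in HE2 (-1.77, SE 0.69, adjusted p = 0.275). The list's median was 0.11 without the dim HE2 replicate 1 and -0.98 without HE2 replicate 2, and its 3 calls became 0 without HE1 replicate 1 and 1 without each of the other 3 arrays.

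TEAD factors and genes of the Hippo pathway, in which YAP acts as the coactivator of TEAD proteins, gave 5 falls among 23 tested and a median of -1.01. Yap1 was at 4.92 and 4.82 in HE1 and 1.85 and 3.13 in HE2, a change of -2.38 (SE 0.55, adjusted p = 0.0211), and was not called with the replicate number as a block (adjusted p = 0.0532). Tead1 and the kinase gene Lats2 also fell, with Vgll2 and Amotl1, and of these Lats2 and Amotl1 were not called with that block. Ccn2, a well-known target of YAP and TEAD, was at 4.04 and 5.52 in HE1 and 0.36 and 2.44 in HE2 and did not pass (-3.38, SE 1.21, adjusted p = 0.202), but was called in the 3 fits with the replicate or the slide as a block (adjusted p up to 0.000947). None of the 5 was called without HE1 replicate 1, and 2 were without HE2 replicate 1.

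All 18 vascular genes that the study names as bound by FOS and JUN or as lower with the dnFOS peptide had negative values, 5 of them past the test, and the median was -2.26. The study chose these genes from its factor binding data together with arrays of this series, so the list's direction is not independent evidence. It names a Tgfb gene without a number, for which Tgfb2 was entered here. Tgfb2, transforming growth factor beta 2, was at 3.09 and 2.10 in HE1 and -1.36 and -0.97 in HE2, a change of -3.76 (SE 0.60, adjusted p = 0.00165), called whichever array was left out. Myo1e and the procollagen protease gene Bmp1 changed by -1.84 (SE 0.44, adjusted p = 0.0264) and -1.86 (SE 0.48, adjusted p = 0.0401), and neither was called with the replicate number as a block (adjusted p = 0.253 and 0.239). The 5 calls became 2 without HE1 replicate 1 and 1 without HE2 replicate 1. For 16 of the 18 both HE2 arrays lay below both HE1 arrays, as for 16.1% of all genes tested. Vegfa, the endothelial growth factor, was at 1.30 and 3.15 in HE1 and -1.1 and 0.45 in HE2 (-2.55, SE 0.83, adjusted p = 0.133), and was called in the 3 fits with a block (adjusted p up to 0.0298). Tgfb2 was also the 1 gene called of 30 TGF-beta and BMP genes tested, whose median was -1.14.

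**Figure D4:**
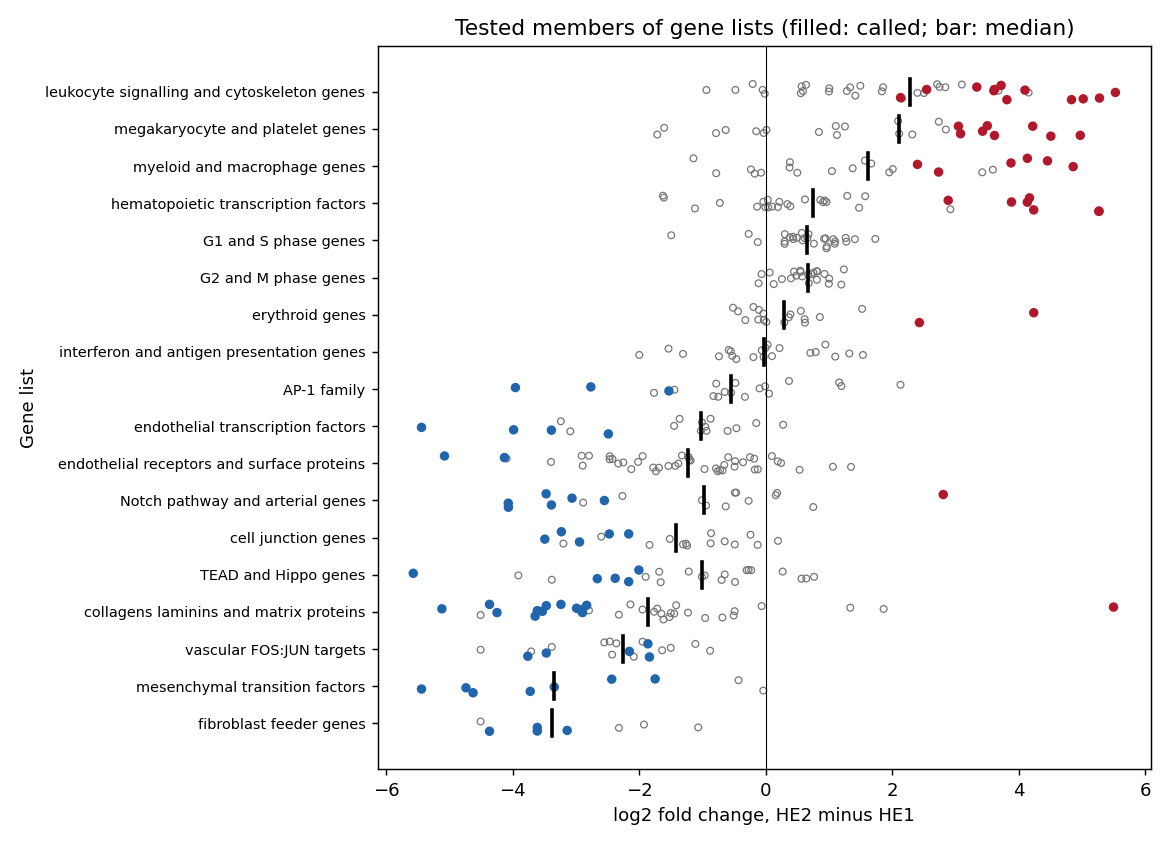
Each point is a tested member of 1 of 18 gene lists, placed at its log2 fold change, HE2 minus HE1, with the lists on the vertical axis. Filled red points are called higher in HE2 and filled blue points lower, open points did not pass the test, and black bars are list medians, from 2.28 for leukocyte genes to -3.37 for fibroblast feeder genes (-1.72 without HE1 replicate 1).

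The counts in the lists moved with the fit. Median scaling gave 112 higher and 166 lower calls over all genes. With it 5 of 34 matrix, 1 of 23 TEAD and Hippo, 1 of 18 vascular target and 1 of 20 junction genes were called lower. So were 1 of 25 actin, 1 of 9 cardiac and 0 of 12 smooth muscle genes, while 12 of 38 leukocyte and 8 of 24 megakaryocyte genes were called higher. With the slide as a fixed block 453 of all 23452 genes tested were called higher and 1234 lower, so larger list counts go with more calls over all genes. In that fit 19 of 34 matrix, 10 of 18 vascular target, 8 of 20 junction, 8 of 23 TEAD and Hippo and 7 of 19 integrin genes were called lower. So were 6 of 30 TGF-beta and BMP, 5 of 12 smooth muscle, 6 of 9 cardiac and 12 of 25 actin genes. Calls higher were 17 of 38 leukocyte and 12 of 24 megakaryocyte genes. Over all genes, normexp background correction gave 77 higher and 165 lower calls. With it 6 of 34 matrix, 2 of 18 Notch and arterial, 2 of 20 junction and 3 of 18 vascular target genes were called lower. So were 3 of 25 actin, 1 of 8 fibroblast feeder, 1 of 9 cardiac and 1 of 17 endothelial factor genes. In the same fit 4 of 24 megakaryocyte genes were called higher, and no AP-1 and no TEAD and Hippo gene was called. Of the 63 called genes named with values, 33 were called with normexp. Those that were not were Spi1, Evi2a, Clec4d, Rgs18 and Car2 among the rises, and among the falls Amotl1, Angpt2, Anxa2, Bmp1, Cdh3, Foxc2, Hand1, Itga8, Jdp2, Lifr, Maf, Maff, Myo1e, Nr2f2, Pdgfra, Smoc2, Snai1, Snai2, Sparcl1, Sulf1, Tnc, Twist2, Unc5b, Vgll2 and Yap1. With median scaling 47 were called, and those lost were Car2, Acta2, Amotl1, Anxa2, Bmp1, Cald1, Jdp2, Lifr, Maff, Myo1e, Nr2f2, Pdgfra, Smoc2, Tjp1, Unc5b and Yap1. With 1 array left out, calls ranged from 1 to 4 for cardiac, 1 to 3 for smooth muscle, 0 to 3 for junction, 0 to 4 for TEAD and Hippo, 0 to 4 for mesenchymal and 1 to 3 for vascular target genes.

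Genes of cell division had mostly positive values, with none past the test in the fit with no block and 3 of the G1 and S phases and 1 of the G2 and M phases with the slide as a block. Of 27 genes of the G1 and S phases, 24 were positive, against 52.1% of all genes tested, and the median was 0.66, and of 23 genes of the G2 and M phases, 21 were positive and the median was 0.67. E2f2, an S phase transcription factor, was at 1.39 and 1.60 in HE1 and 2.87 and 3.59 in HE2 (1.73, SE 0.62, adjusted p = 0.209). Ube2c, a ubiquitin conjugase of mitosis, was at 4.07 and 4.58 in HE1 and 5.39 and 5.65 in HE2 (1.19, SE 0.48, adjusted p = 0.3). E2f2 and Ube2c were called with the slide as a fixed or random block and with quantile normalization. The G1 and S phase median was 1.34 without the dim HE2 replicate 1 and 0.01 without HE2 replicate 2. Of 7 genes of cyclin-dependent kinase inhibitors none passed (1 with a block), Cdkn1c standing at 5.00 and 2.65 in HE1 and 2.06 and 2.02 in HE2 (-1.78, SE 0.81, adjusted p = 0.433).

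Interferon and antigen presentation genes (21 tested, median -0.03), stress and RNA quality genes (10 tested, median 0.15) and pluripotency genes (7 tested, median -0.64) had no member past the test in either direction, although with the slide as a fixed block 2 interferon genes were called higher and 1 lower. The same held for 3 genes that the study relates to hematopoietic stem cells, with Hoxb4 at 2.07 and 2.12 in HE1 and -0.59 and 1.05 in HE2 (-1.87, SE 0.53, adjusted p = 0.0703). Hoxb4 was called with the slide as a fixed or random block, with quantile normalization, with the authors' values and without HE2 replicate 2. The stress markers summed to 28.3 and 32.2 in HE1 and to 15.0 and 26.8 in HE2.

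The same step in the cells given DOX was measured on 4 other arrays, which hold cells given 1 µg/ml DOX for 2 d. They share no array with the comparison above, but each replicate lay on the same slide and scan day as the untreated arrays of its number. Both steps also shared the estimate of the spread, so the 2 steps are not separate experiments. Of the 153 genes higher in untreated HE2, 149 had a positive DOX step, against 52.4% of all genes tested, and of the 519 lower genes 517 had a negative one, against 47.6%. Their median DOX steps were 2.68 and -2.40. In the DOX arrays 105 genes were higher (0.448%) and 289 lower (1.23%). Both steps had 86 higher genes in common, which were 56.2% of the untreated and 81.9% of the DOX list, and 227 lower genes, which were 43.7% and 78.5%. The count of genes called in opposite directions was 0.

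A test of the difference between the steps, the interaction of HE1 or HE2 with DOX in limma, called 0 genes. In it 295 genes (1.26%) had an unadjusted p under 0.05, and the smallest adjusted p was 0.9999. With the slide as a fixed block the share was 4.99% and the smallest adjusted p 0.771, again with 0 genes called. With the replicate number as a block in 8 arrays they were 3.37% and 0.83, also with 0 called. Such a lack of calls does not show that the steps are alike. Without HE1 replicate 1 the smallest adjusted p was 0.0865. Runx1 had a DOX step of 3.37, Gfi1b of 3.53 and Fcer1g of 4.79, beside 4.14, 4.24 and 4.86 without DOX. Spi1 was at -4.78 and -4.98 in HE1 with DOX and -1.77 and -6.46 in HE2 with DOX, beside -5.31 and -5.55 in HE1, above background on neither array, and -0.01 and -0.31 in HE2 without DOX, so that no size is given for the difference between the steps, which did not pass (adjusted p = 1). For Gfi1 the levels were -0.20 and 1.64 and 3.09 and 2.92 with DOX, and the difference of 3.01 (SE 1.53) likewise did not pass (adjusted p = 1). Meis2 had a DOX step of -4.0, Angpt2 of -4.44 and Tgfb2 of -2.90.

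The levels of the 2 sets in the other untreated populations are given as a description. The sets were chosen on the HE1 and HE2 arrays, so their levels there follow from the choice. On the 2 arrays of hematopoietic progenitors (HP, KIT+ TIE2- CD41+), the median level of the 153 higher genes was 2.66 and 2.86. Their median was 1.21 and 1.97 in HE2, -1.90 and -1.85 in HE1, -1.79 to -1.55 on the 3 arrays of smooth muscle cells and -2.96 and -3.25 in FLK1+ cells. The set was lowest in FLK1+ cells, where it overlapped with the same cells after 5 h (-3.00 and -2.87), and highest in HP. The 519 lower genes had medians of 1.19 and 0.71 in HE1, 1.55 to 1.75 in smooth muscle cells, -2.55 and -2.07 in HE2 and -2.38 and -1.32 in HP. In FLK1+ cells their medians were 0.55 and 0.57 and in day 1 blast cultures 1.45 and 1.42.

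The step from HE2 to HP shares the HE2 arrays with the comparison above. Gata1 was at 3.57 and 3.87 on the HP arrays, after 0.22 and 0.36 in HE2, Tyrobp at 5.42 and 5.39 after 3.06 and 2.91, and Runx1 at 4.21 and 4.90 after 4.57 and 3.60. Spi1 stood at 1.74 and 0.86 in HP. Of the genes tested here 3 were called higher in HP than in HE2 (0.0128%) and none lower, with 660 (2.81%) and 932 (3.97%) at an unadjusted p under 0.05 and 2-fold.

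**Figure D5:**
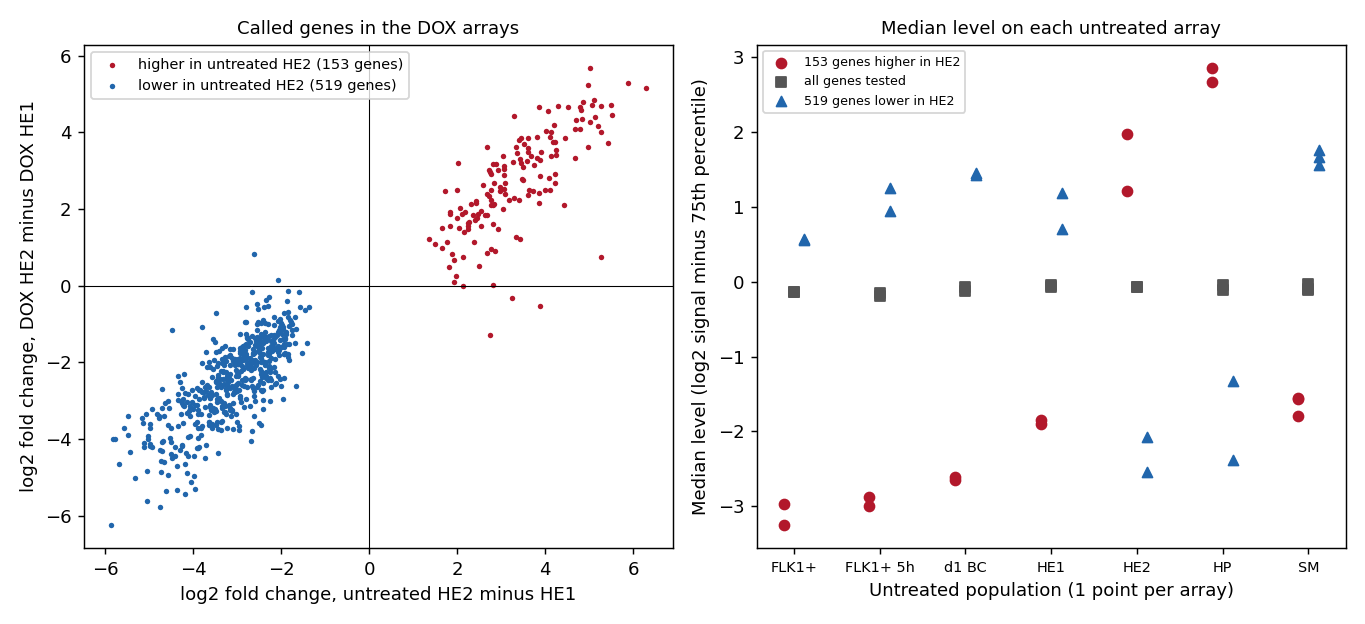
On the left, each point is 1 of the 672 called genes, with its log2 fold change in untreated cells on the horizontal axis and in cells given DOX on the vertical axis (red, higher in untreated HE2; blue, lower). On the right, each point is the median level on 1 array (log2 signal minus 75th percentile) of the 153 higher genes (red circles), the 519 lower genes (blue triangles) or all genes tested (grey squares) in 7 untreated populations; the red points are highest in HP and the blue points lowest in HE2 and HP.

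Promoter sequences were read for the called genes that have exactly 1 window in the RefSeq table of build GRCm38.p6, a stretch of 300 bases around the start of the gene. These were 79 of the 129 higher genes and 263 of the 446 lower genes with a symbol, beside 8957 of 14021 tested genes with a symbol. Letters were searched on both strands. TGTGGT, a core of the RUNX motif, was in 27.8% of the windows of higher genes, 7.22% of those of lower genes and 13% of all tested. AGGAAG, an ETS core that PU.1 can bind, was in 57.0%, 25.9% and 33.4%. GGAATG, a TEAD core, was in 10.1%, 15.2% and 12.2%, the AP-1 site TGANTCA in 6.33%, 6.84% and 4.97%, and the GATA core AGATAA in 10.1%, 5.32% and 7.10%. AACAAT, a SOX core, was in 5.06%, 7.22% and 6.68% and the E-box CANNTG in 74.7%, 59.7% and 64.2%. No test was made of these shares, and the ETS and TEAD cores both hold the letters GGAA.

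Base composition moved with these shares. The median G and C content was 55.7% in windows of higher genes, 64.7% in those of lower genes and 60% in all tested, and in the 22862 genes of the whole table with 1 window, where it was 52.3%, TGTGGT was in 17.1% and AGGAAG in 35.2%. In the same table the TEAD letters were in 14.6%, the AP-1 letters in 7.98%, the GATA letters in 11.5%, the SOX letters in 11.2% and the E-box letters in 72.4%. The shares of the AP-1, GATA and SOX letters in the whole table were above those in both called sets. The part of base composition in the shares was not tested. Windows that hold both cores are shown for 3 genes that rose in different lists, with TGTGGT or AGGAAG on either strand in capitals (ACCACA and CTTCCT are the same cores on the other strand): Myo1f (chr17:33555457-33555756, plus strand), Fcer1g (chr1:171234300-171234599, minus strand) and Gp9 (chr6:87777820-87778119, plus strand), all in GRCm38.p6.
Myo1f: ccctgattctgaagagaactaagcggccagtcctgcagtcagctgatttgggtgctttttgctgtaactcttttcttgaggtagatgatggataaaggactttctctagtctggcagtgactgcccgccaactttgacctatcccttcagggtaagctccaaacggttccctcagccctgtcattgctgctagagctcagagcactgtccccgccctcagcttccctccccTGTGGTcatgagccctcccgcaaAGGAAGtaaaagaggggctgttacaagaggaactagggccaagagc
Fcer1g: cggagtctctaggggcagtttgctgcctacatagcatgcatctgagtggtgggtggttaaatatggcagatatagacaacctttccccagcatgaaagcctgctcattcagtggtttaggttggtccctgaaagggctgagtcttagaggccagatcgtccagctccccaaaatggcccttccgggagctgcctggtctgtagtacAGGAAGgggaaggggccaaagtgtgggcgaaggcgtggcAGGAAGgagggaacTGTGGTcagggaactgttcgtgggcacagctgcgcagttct
Gp9: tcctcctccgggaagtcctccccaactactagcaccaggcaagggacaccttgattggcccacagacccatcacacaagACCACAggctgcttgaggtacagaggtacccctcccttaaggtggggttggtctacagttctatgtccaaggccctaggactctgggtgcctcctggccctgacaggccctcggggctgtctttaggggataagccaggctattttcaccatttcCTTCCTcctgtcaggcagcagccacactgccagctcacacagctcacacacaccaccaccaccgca

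Windows with GGAATG in capitals are shown for Yap1, the TEAD coactivator gene (chr9:8004547-8004846, minus strand), and Acta2, the smooth muscle actin gene (chr19:34255324-34255623, minus strand), both of which fell. Each holds the letters 1 time, and a match describes the letters only.
Yap1: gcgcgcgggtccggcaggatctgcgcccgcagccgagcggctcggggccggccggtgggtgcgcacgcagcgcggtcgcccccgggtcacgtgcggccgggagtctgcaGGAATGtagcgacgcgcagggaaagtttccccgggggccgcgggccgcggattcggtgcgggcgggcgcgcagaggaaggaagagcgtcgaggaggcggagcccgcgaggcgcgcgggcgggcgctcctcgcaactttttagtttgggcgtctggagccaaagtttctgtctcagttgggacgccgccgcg
Acta2: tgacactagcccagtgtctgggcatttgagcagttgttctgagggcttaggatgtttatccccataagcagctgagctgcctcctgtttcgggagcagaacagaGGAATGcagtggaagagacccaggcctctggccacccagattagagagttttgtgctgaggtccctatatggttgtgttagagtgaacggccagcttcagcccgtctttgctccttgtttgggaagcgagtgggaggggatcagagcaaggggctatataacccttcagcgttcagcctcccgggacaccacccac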

How the data were processed

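Total RNA of sorted cells was labelled with Cy3 and hybridized to 27 1-colour Agilent mouse arrays. The deposited scanner files hold spot intensity values from Agilent Feature Extraction, with background already subtracted by the authors' software. The authors also deposited a table of processed log2 values, whose normalization is not given in the sources used here beyond the naming of limma, and it served as an alternative.

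Here, log2 of the processed signal was taken, flagged spots and control spots were left out, spots of a probe were averaged, and each array was scaled on its 75th percentile. Of 55681 probes, 1 per gene was kept, with the highest mean over all arrays, and a gene was tested if every HE1 array, or every HE2 array, showed its probe well above background. limma 3.58.1 in R 4.3.3 was fitted to 13 group means over 27 arrays, with empirical Bayes moderation and Benjamini-Hochberg adjustment. A gene was called at an adjusted p under 0.05 and at least 2-fold. The fit was tested on simulated data, where its estimates were close to the changes put in, but most changes of the smaller simulated size were not called. Those data had independent noise on each array, with no slide effect, dim array or background. They check the code and do not bear on how the fit handles these features. Symbols came from RefSeq through the probes' accessions, for 20145 of 37208 genes or transcripts. No 2 arrays held identical values.

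Replicate numbers were not used as a block in the fit that gave the calls. The labels do not say that they mark a shared batch, and each comparison held 2 pairs. For HE1 and HE2, though, each replicate number had its own slide and scan day. Arrays on 1 slide had a consensus correlation of 0.49. The fit that gave the calls leaves this pairing out, so a gene that did not pass in it may pass with a block. A fit with the replicate number as a block was an alternative. Slides were treated as batches: within-slide differences and fits with a slide block were made. Other alternatives were the background correction, the scaling, the filter, the probes, the threshold, the moderation, array weights, a fit to the 2 groups alone and each array left out. Calls per gene list with 1 array left out were an alternative chosen after seeing the data.

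The genes named were those the study names for these arrays and the sorting markers, textbook regulators of the transition, up to 3 members of each list with the lowest adjusted p, and the 10 largest fitted rises and falls among called genes with a symbol. Other called members of the lists were named after their values were seen. Some genes are counted in the lists but not reported by name here. The comparison and the gene lists were chosen with earlier results of these data known.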

Additional observations from a re-analysis of the deposited data

How the results depend on the processing

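The 153 higher and 519 lower genes had the same sign when scaled by quantiles, with normexp, in the authors' table and when probes were averaged. Scaling on the median shifts every gene alike, by less than the 2-fold that a call needs, so it could not change a sign. In the other fits with 1 probe a gene the sign follows from arrays that do not overlap, and it was not followed where each probe was tested. Their number moved. Higher and lower calls were 77 and 165 with normexp background correction, 333 and 838 with quantile normalization, 354 and 769 with the authors' processed values, 100 and 325 without a filter, 86 and 224 among genes above background on all 4 arrays, 95 and 302 with array weights, 453 and 1234 with slide as a fixed block, 478 and 1356 with slide as a random block, and 0 and 0 in a fit to the 2 groups alone. Scaling on the median left 166 lower calls and moved the median of all genes from 0.04 to 0.23, and normexp moved it to -0.12 and leaving the filter out to -0.11. An adjusted p under 0.10 gave 235 higher calls, and an unadjusted p under 0.05 gave 645 and 1667. With 1 array left out, calls ranged from 57 to 86 higher and from 101 to 437 lower. The replicate number as a block gave 226 and 687 calls. Same-numbered arrays deviated together with r = 0.26 over genes. The count of genes higher at an unadjusted p was 379 with normexp, 1255 with quantile normalization, 1149 with the authors' values, 1154 and 1119 with the slide as a fixed and a random block, and 483 to 1029 with 1 array left out, and of genes lower 968 with normexp and 924 above background on all 4 arrays. The cause of these shifts was not tested.

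List medians kept their sign except for AP-1, erythroid, interferon and stress genes. The interferon median was 0.16 with median scaling and ranged from -0.36 to 0.29 with 1 array left out, and the stress median was -0.0997 with normexp and ranged from -0.21 to 0.27. The fibroblast feeder median, -3.37, was -1.85 with normexp and ranged from -3.89 to -1.72 with 1 array left out. With normexp they were -0.61 for Notch and arterial, -1.07 for junction, -0.80 for integrin, 1.13 for leukocyte, 0.87 for megakaryocyte, 0.45 for myeloid, -1.62 for vascular target, -0.67 for TGF-beta, -1.42 for mesenchymal factor, -0.65 for kinase inhibitor, -1.82 for cardiac and -1.07 for actin genes. With median scaling they were -1.22 for junction, -0.95 for integrin and 2.47 for leukocyte genes, and with quantile normalization 2.52 for leukocyte genes. The authors' values gave -0.82 for integrin, 2.06 for leukocyte and -2.22 for mesenchymal factor genes. Detection on all 4 arrays gave -1.06 for junction, 1.99 for leukocyte and -0.43 for mesenchymal factor genes, and no filter gave 1.25 for megakaryocyte and -1.96 for cardiac genes. With 1 array left out, medians ranged from -0.98 to 0.11 for AP-1, 0.0109 to 1.34 for G1 and S phase, 0.31 to 1.12 for G2 and M phase, -1.80 to -0.78 for Notch, -1.51 to -0.53 for TGF-beta, -1.83 to -1.16 for junction, -1.76 to -0.53 for kinase inhibitor, -1.31 to -0.70 for endothelial surface, -1.59 to -1.13 for endothelial factor, -0.14 to 0.50 for erythroid, -1.28 to -0.91 for integrin, 1.98 to 2.64 for leukocyte, -1.41 to -0.31 for pluripotency and -2.63 to -1.85 for vascular target genes. Gata2 had -0.0142 with quantile normalization and ranged from -0.37 to 0.44 with 1 array left out, and Fos from -1.82 to 0.32. Signal over background limits the size of the falls, of which 220 had HE2 signal above background on 1 array and 40 on none.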
